A study of Homo sapiens with 8 samples.

Results

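The non-targeting controls are guide RNAs that were designed to match no site in the human genome. They were taken as all guides of the count table whose target name begins with NonTargeting, which gave 1000 guides out of 119461 (0.837%). The screen was carried out in MB157R, a triple-negative breast cancer line that had become resistant to γ-secretase inhibition and stably carries Cas9. Cells received the human GeCKOv2 knockout library at a coverage of 200-fold or more and were selected with puromycin for 4 days. All of them were then combined. Libraries were made from 2 aliquots of this pool with no treatment (T0), from 3 cultures kept in the solvent DMSO for 14 days, and from 3 cultures kept for 14 days in 10 µM of the γ-secretase inhibitor LY3039478 (GSI). All 8 libraries therefore share the resistant line, Cas9 and 1 transduced pool, and the spread between libraries is that between aliquots or cultures, not between transductions. The identity of the line cannot be checked from guide counts.

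A guide RNA leads Cas9 to a matching stretch of DNA, where the enzyme makes a double-strand break. Repair of the break often inactivates the gene, and cells that lose a gene they need drop out of the culture together with the guide they carry. The break itself can also slow cells, whatever gene is hit. A non-targeting guide leads to neither, so that its abundance over time follows chance and the competition with all other cells in the culture. Guides against genes with no role in the tissue, such as olfactory receptors and keratin-associated proteins, are the other usual reference, since they cut the genome without removing a needed gene.

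The controls are numbered from 0001 to 1000, every number occurs once, and every guide name carries the prefix of part A of the library. The remaining guides comprise 111627 against 18913 genes, divided between part A (56116) and part B (55511), and 6834 against 1795 microRNAs, all in part A. Whether the controls were also carried in part B was not analysed here. If they were, each control would have entered the pool from both parts under 1 name, and its level would not compare directly with that of a guide held in 1 part. The guides have no position in the genome, and their sequences were not analysed here.

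The libraries held 12052218 to 18212884 counts. A guide against VPS33B was the most abundant guide in all of them and took 38.8% of all counts in GSI replicate 1, which held 18212884 counts with it and 11145614 without it. In the other libraries it took 0.0938% to 1.52%. The median raw count of a control ranged from 152 in GSI replicate 1 to 274 in GSI replicate 2. For a gene-targeting guide it ranged from 66 to 113 in the same 2 libraries. Reads of PCR products are not independent molecules, so these depths set the counting error only.

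Controls were more abundant than other guides from the start. Counts were divided by a size factor per library (the median ratio of each guide to its geometric mean over the libraries), which gives the normalized count. At T0 the median normalized count of a control was 164 and 176 in replicates 1 and 2, against 85.8 and 81.4 for gene-targeting guides. On the log2 scale, the median of the normalized count plus 1 was higher in controls by 0.92 and 1.10, a mean gap of 1.01 ± 0.13 (SD, n = 2), which is a ratio of 2.02. The gap was 0.99 ± 0.16 against the guides of part A and 1.05 ± 0.08 against those of part B, so that both parts lay about equally far below the controls. Representation in the library and any other source of this gap at T0 cannot be told apart. The controls held more reads per guide than the guides they are compared with. Several measures that depend on read number were therefore also taken within 1 range of mean abundance over all 8 libraries.

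The median gap between controls and all gene-targeting guides was wider at day 14 than at T0. With DMSO the controls stood higher by 1.31, 1.26 and 1.33 in replicates 1 to 3, a mean of 1.30 ± 0.04 (SD, n = 3). With GSI the gap was 1.19, 1.27 and 1.26, a mean of 1.24 ± 0.04 (SD, n = 3). All 6 libraries of day 14 lay above both T0 libraries, the nearest being GSI replicate 1 (1.19) and T0 replicate 2 (1.10). The separation did not hold against the guides of part A alone, the part named for the controls, where GSI replicate 1 (1.01) lay below T0 replicate 2 (1.10). Against part B the gap in GSI replicate 1 was 1.40. In that library the median of part A guides stood 0.39 above that of part B guides, whereas in the other libraries it differed by −0.11 to 0.12. Against part A the other 5 libraries of day 14 had gaps of 1.29 to 1.39. The mean gap exceeded that of T0 by 0.29 with DMSO and by 0.22 with GSI. These are ratios of 2.47 and 2.36 between a typical control and a typical gene-targeting guide, in place of 2.02. Scaling a library by a constant cancels in this gap, except through the pseudocount of 1. No test was made of the gap, which is a score over the controls.

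The size of this difference depended on the T0 library. Against T0 replicate 2 alone it was 0.20 with DMSO and 0.14 with GSI, and against T0 replicate 1 alone it was 0.38 and 0.31. When GSI replicate 1 was left out, the difference of GSI from T0 was 0.25. The mean over guides in place of the median gave gaps of 1.32 and 1.64 at T0, of 1.57 ± 0.02 with DMSO and of 1.42 ± 0.07 with GSI (SD, n = 3 each). By that measure DMSO exceeded T0 by 0.09, and GSI stood 0.06 below it. At T0, 5.05% and 11.5% of gene-targeting guides had no read. Among the guides with a count above 0 in all libraries the median gap was 0.72 and 0.81 at T0, 1.03 to 1.12 with DMSO and 0.98 to 1.05 with GSI. That filter also uses the counts of day 14, so that the guides kept are chosen in part by the counts compared. It kept 98.6% of controls and 81.9% of gene-targeting guides.

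The distance between controls and gene-targeting guides differed along the distribution of abundance. At the 95th percentile the controls were higher by 0.68 and 0.66 at T0, by 0.88, 0.90 and 0.81 with DMSO and by 0.90, 0.89 and 0.87 with GSI. At the 75th percentile they were higher by 0.80 and 0.88 at T0, and by 1.03 to 1.09 at day 14. At both percentiles every library of day 14 lay above both T0 libraries. At the 25th percentile this was not so. The controls were higher there by 1.40 and 1.95 at T0, by 1.74, 1.73 and 1.79 with DMSO and by 1.45, 1.58 and 1.58 with GSI, so that T0 replicate 2 lay above all 6 libraries of day 14. At the 5th percentile both T0 libraries lay above all libraries of day 14. There the controls were higher by 4.70 and 4.29 at T0, by 3.71, 4.16 and 3.33 with DMSO, and by 2.28, 2.87 and 2.76 with GSI. The 5th percentile of gene-targeting guides was a count of 0 in both T0 libraries and 2 to 9 at day 14.

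Of the guides that cut genes with no known role in breast cells, those against olfactory receptors lay between the controls and the average gene-targeting guide in all 8 libraries. Those against keratin-associated proteins lay below the average gene-targeting guide in 6 of 8 libraries, with medians of 81.1 and 73.0 at T0 and of 80.7 to 84.7 at day 14. The pooled values that follow rest mostly on the olfactory receptors. Olfactory receptors (2204 guides, 372 genes) and keratin-associated proteins (534 guides, 92 genes) together had a median normalized count of 95.9 and 89.3 at T0, of 103, 102 and 98.7 with DMSO and of 100.4, 104 and 98.8 with GSI. They stood above gene-targeting guides by 0.16 and 0.13 at T0, by 0.33, 0.29 and 0.21 with DMSO and by 0.27, 0.32 and 0.20 with GSI, so that here too all 6 libraries of day 14 exceeded both of T0. Measured from this reference, the controls were higher by 0.77 and 0.97 at T0, by 0.98, 0.98 and 1.12 with DMSO and by 0.92, 0.95 and 1.05 with GSI. The libraries then overlapped, since GSI replicates 1 and 2 lay below T0 replicate 2. The difference from T0 was 0.16 with DMSO and 0.11 with GSI, against a SD of 0.14 between the T0 libraries. Guides against microRNAs, which cut loci that mostly encode no protein, had a gap to the controls of 1.10 and 1.34 at T0 and of 1.22 to 1.55 at day 14. GSI replicate 1 was the lowest of day 14 in this measure and lay between the T0 libraries.

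Guides against the cytosolic ribosome, which every growing cell needs, mark the opposite end. The controls exceeded them by 1.15 and 1.58 at T0, by 2.79, 3.04 and 3.22 with DMSO and by 2.31, 2.74 and 2.78 with GSI. The range of day 14 was separate from that of T0. Over 3 libraries each, the mean gap was 3.02 (SD 0.21) in DMSO and 2.61 (SD 0.26) in GSI, and the lowest DMSO value lay above the highest GSI value by less than either SD.

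The controls took up more of the reads at day 14 than at T0 in the libraries without the VPS33B expansion. They held 1.503% and 1.55% of all counts at T0, 1.83%, 1.83% and 1.88% with DMSO, and 1.81% and 1.86% in GSI replicates 2 and 3. In GSI replicate 1 the share was 0.980% of all counts, and 1.60% once the most abundant guide was left out of the total. With that guide left out of every library, the T0 libraries stood at 1.52% and 1.58% and the other libraries of day 14 at 1.82% to 1.88%. Per guide the controls held 1.83 ± 0.0437 times the library average at T0 (SD, n = 2) and 2.20 ± 0.0377 times with DMSO (SD, n = 3). With GSI it was 1.85 ± 0.589 times (SD, n = 3), from 1.17 in GSI replicate 1 to 2.22 in GSI replicate 3. No control was a dominant clone. The most abundant control of each library ranked 25th to 51st among all guides and held at most 0.00982% of the counts.

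Few controls were missing. At T0, 3 and 10 of 1000 controls had a count of 0 (0.300%, exact 95% interval 0.0619% to 0.874%, and 1.00%, 0.481% to 1.83%, Clopper-Pearson). With DMSO the number was 1, 0 and 1 in replicates 1 to 3, and with GSI it was 0, 1 and 0. The 0 of 1000 controls in DMSO replicate 2 and GSI replicates 1 and 3 allows a share of up to 0.300% by the limit of 3 counts in 1000. The exact 95% interval, which is drawn on both sides, reaches 0.368% there. The gene-targeting guides at a count of 0 made up 2.55% to 3.85% with DMSO and 0.745% to 2.30% with GSI. After thinning all libraries to 11145614 counts, 4 and 11 controls were at 0 at T0, 2, 0 and 1 with DMSO and 0, 1 and 0 with GSI. Of all controls, 986 had a count above 0 in every library (98.6%), 12 were at 0 in 1 library and 2 in 2 libraries. Among gene-targeting guides 81.9% had a count above 0 throughout. These shares were also taken within 1 range of mean abundance. Among guides with a mean normalized count of 100 to 300, the shares were 99.7% of 651 controls and 98.4% of 47101 gene-targeting guides.

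Abundance was more even among controls than among guides that cut. The Gini index, which is 0 when all guides have the same count and nears 1 when few hold all, was 0.403 and 0.408 for controls at T0, 0.364, 0.353 and 0.317 with DMSO and 0.347, 0.367 and 0.314 with GSI. For gene-targeting guides it was 0.497 and 0.537 at T0, 0.445 to 0.481 with DMSO and 0.424 to 0.698 with GSI, where the highest value is that of GSI replicate 1. The difference was smaller within 1 range of mean abundance. For mean normalized counts of 100 to 300, the index was 0.324 and 0.350 for controls and 0.340 and 0.381 for gene-targeting guides at T0. At day 14 it was 0.229 to 0.266 for controls and 0.243 to 0.292 for gene-targeting guides, and the controls had the lower value in each library. The 95th percentile of control abundance was 20.8 and 28.1 times the 5th at T0, 7.80 to 11.7 times with DMSO and 7.41 to 12.3 times with GSI. In each of these measures the controls of the T0 libraries were less even than those of any library of day 14.

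The T0 aliquots differed from each other more than the cultures did. Ranked by abundance, the 1000 controls of the T0 pair had a Spearman's rho of 0.446, a description over guides that share both libraries. Pairs of T0 and day 14 had values of 0.521 to 0.720. For pairs of DMSO cultures rho was 0.673 to 0.677, and for pairs of GSI cultures it was 0.701 to 0.819. The robust SD of the log2 ratio between both T0 libraries was 1.23, whereas counting error for the same reads gives 0.153. Within DMSO it was 0.711 to 0.784 and within GSI 0.587 to 0.756, which is 3.96 to 5.60 times the counting error over both arms. The closest of all pairs was DMSO replicate 1 with GSI replicate 1, from different treatments, with a rho of 0.854 and a SD of 0.513. For guides with mean normalized counts of 100 to 300, the SD between the T0 libraries was 1.37 for controls and 1.45 for gene-targeting guides. Within DMSO it was 0.703 to 0.805 for controls and 0.913 to 0.970 for gene-targeting guides.

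DMSO against T0 follows the guides through growth in the absence of the drug. Each guide was tested with the quasi-likelihood test of edgeR on raw counts, and 999 controls passed the filter of a mean count of 10 or more. The median log2 fold change was 0.25 for controls and 0.00 for all guides tested. It was positive for 663 controls (66.4%), against 50.1% of all guides. None of the controls was called at an adjusted p under 0.05, nor was any other guide (0% called), and the lowest adjusted p of a control was 0.488 (edgeR). At an unadjusted p under 0.05, 29 controls were higher and 8 were lower, that is 2.90% and 0.801%. Over all guides the shares were 4.19% higher and 3.55% lower. Normalized counts of the DMSO cultures lay above both T0 libraries for 182 controls (18.2%, against 14.9% of all guides) and below both for 54 (5.41%, against 13.1%).

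The split of controls between higher and lower depended on the scaling in DMSO against T0. Library totals gave 46 higher and 3 lower at an unadjusted p under 0.05 (4.60% and 0.300%), against 4.62% and 3.13% of all guides. Scaling to the controls themselves gave 13 higher and 25 lower (1.30% and 2.503%), against 2.94% and 6.03% of all guides, and shifted the median of all guides to −0.26. In each comparison this scaling holds the median fold change of the controls near 0 in advance, so it cannot show a gain of the controls. DESeq2 called 22 controls, 20 of them higher, which is 2.20% against 5.66% of all guides. Without T0 replicate 1, edgeR called 39 controls (3.90%, against 7.13% of all guides), and without T0 replicate 2 it called 0 controls and 19 guides. The number of controls called thus varied together with that of all guides.

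The fold changes of the controls give the range that guides without a target covered in this comparison. Their central 95% ran from −1.002 to 1.92, and their interquartile range was 0.85 against 1.48 for gene-targeting guides. Of 109329 gene-targeting guides, 19430 (17.8%) lay below this range and 9044 (8.27%) above it. Of 2711 guides against olfactory receptors and keratin-associated proteins 13.5% lay below it, and of 413 ribosomal guides 51.6%. Within a mean normalized count of 100 to 300, the central 95% of 651 controls ran from −1.07 to 1.86, with 9.97% of gene-targeting guides below and 3.67% above. The median there was 0.30 for controls and 0.02 for gene-targeting guides, and the interquartile range was 0.87 and 1.16. The range of 100 to 300 is set on the mean over all 8 libraries. Counts of day 14 thus decide in part which guides fall in it. Within it the median of that mean was 182 for controls and 147 for gene-targeting guides. The medians of the fold change are therefore not compared at like abundance at T0.

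Single controls show how far a guide without a target could differ from T0. NonTargetingControlGuideForHuman_0426, called control 0426 here as the others are called by their numbers, had raw counts of 1 and 2 at T0. It had 96, 116 and 163 with DMSO and 93, 309 and 134 with GSI. The ratio of DMSO to T0 from these reads was 97.0 (exact 95% interval 32.9 to 472) and that of GSI to T0 was 136 (46.2 to 661), counting error only. It had the lowest p of all controls on the high side in both comparisons with T0, which share the T0 libraries (adjusted p = 0.488 and 0.475, edgeR). All 6 cultures lay far above both T0 aliquots of the same pool.

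The next controls on the high side were, like control 0426, chosen by their p against T0, so that their T0 level is part of the choice. Control 0123 had normalized counts of 18.7 and 41.6 at T0 and of 266, 157 and 212 with DMSO, a log2 fold change of 2.81 ± 0.75 (SE; adjusted p = 0.503, edgeR). With GSI it had 182, 90.4 and 226. Control 0567 had 87.3 and 51.3 at T0, 392, 313 and 177 with DMSO, and 249, 407 and 301 with GSI. Control 0616 had 63.2 and 23.0 at T0, 299, 164 and 237 with DMSO, and 362, 248 and 228 with GSI. In none of these 3 did a culture overlap with T0, and none was called, with fold changes of 2.08 ± 0.61 for control 0567 and 2.43 ± 0.73 for control 0616 in DMSO against T0.

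The controls with the lowest p on the low side were chosen in the same way. Control 0091 had normalized counts of 517 and 477 at T0, of 145, 178 and 182 with DMSO and of 193, 193 and 232 with GSI. Its log2 fold change was −1.56 ± 0.42 with DMSO (adjusted p = 0.503, edgeR) and −1.27 ± 0.36 with GSI (adjusted p = 0.476). Control 0805 had 689 and 947 at T0, 434, 381 and 434 with DMSO, and 383, 432 and 242 with GSI, at −0.97 ± 0.36 and −1.22 ± 0.39. Control 0207 had 469 and 634 at T0, 327, 295 and 240 with DMSO, and 270, 167 and 316 with GSI. In control 0447, with 505 and 283 at T0 and 228, 173 and 109 with DMSO, the GSI cultures (192, 356 and 85.7) overlapped with T0. None of these 4 was called, while all 4 had DMSO cultures below both T0 libraries.

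GSI against T0 follows the same pool through growth with the inhibitor. The median log2 fold change was 0.18 for controls and −0.02 for all guides, and it was positive for 622 controls (62.3%), against 49.2% of all guides. No guide was called by edgeR (0%). At an unadjusted p under 0.05, 40 controls were higher (4.00%, against 4.72% of all guides) and 6 were lower (0.601%, against 3.99%). The GSI cultures lay above both T0 libraries for 181 controls (18.1%, against 15.7%) and below both for 56 (5.61%, against 13.6%). The share of controls on the low side at a p under 0.05 was below that of all guides in both arms, under each of the 14 settings of the fit tried per comparison, which share the T0 libraries. On the high side the order depended on the setting, and the controls had the higher share in 3 of 14 settings in either comparison. With DESeq2 11.3% of controls were higher in DMSO against T0 and 10.7% in GSI against T0, against 9.42% and 9.68% of all guides. For mean normalized counts of 100 to 300 in GSI against T0, 4.61% of controls and 3.86% of gene-targeting guides were higher by edgeR. Over the 6 cultures together, 103 controls were above both T0 libraries in every one (10.3%, against 9.70% of all guides) and 26 were below (2.60%, against 8.37%).

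Scaling again moved the split of controls. In GSI against T0, library totals gave 14 higher and 5 lower (1.40% and 0.501%), against 3.37% and 4.06% of all guides, with a median of all guides of −0.16. These totals include the VPS33B guide, which held 38.8% of the counts of GSI replicate 1. Scaling to the controls gave 18 higher and 16 lower (1.80% and 1.60%), against 3.67% and 6.23%, with a median of all guides of −0.22. DESeq2 called 39 controls, 33 of them higher (3.90%, against 6.71% of all guides called). Without T0 replicate 1 edgeR called 98 controls (9.81%, against 18.1% of all guides), and without T0 replicate 2 it called 25 (2.503%, against 4.72%).

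The central 95% of the controls ran from −1.005 to 1.87 in GSI against T0, with 16.0% of gene-targeting guides below and 7.99% above. A further pair of controls was named by their p in this comparison alone. Control 0449 had normalized counts of 82.7 and 53.1 at T0, of 207, 198 and 273 with DMSO and of 261, 210 and 347 with GSI, a log2 fold change of 2.004 ± 0.52 (adjusted p = 0.475, edgeR). Control 0195 had 270 and 342 at T0, 207, 167 and 122 with DMSO, and 158, 120 and 115 with GSI, at −1.22 ± 0.44 (not called). In both the cultures of either arm lay apart from T0 on the same side.

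GSI against DMSO at day 14 is the comparison in which the screen looked for genes that alter growth under the drug, and here the controls differed little between the arms. The median log2 fold change was −0.08 for controls and −0.02 for all guides, and 428 controls (42.8%) had a positive value, against 48.6% of all guides. The median was 0.03 for gene-targeting guides of part A and −0.08 for those of part B, so that the controls stood below part A and level with part B. No guide was called by edgeR (0%), and DESeq2 called none either. At an unadjusted p under 0.05, 8 controls were higher (0.801%, against 1.55% of all guides) and 13 lower (1.30%, against 1.46%). The GSI cultures lay above all DMSO cultures for 46 controls (4.60%, against 4.72%) and below all for 68 (6.81%, against 4.36%). The gap to gene-targeting guides differed by −0.06 (GSI minus DMSO), by −0.11 against part A and by 0.00984 against part B, where the direction turned. In both parts GSI replicate 1 stood apart from the other GSI cultures. Against part A it had 1.01, GSI replicates 2 and 3 had 1.31 and 1.32, and DMSO had 1.29 to 1.39. Against part B it had 1.40, GSI replicates 2 and 3 had 1.23 and 1.21, and DMSO had 1.22 to 1.31. Against all gene-targeting guides the ranges overlapped, since GSI replicate 2 (1.27) lay above DMSO replicate 2 (1.26). Library totals, which include the VPS33B guide of GSI replicate 1, gave 2 controls higher and 26 lower (0.2002% and 2.60%). The shares of all guides were 0.773% and 2.65%, with a median of all guides of −0.22. Scaling to the controls gave 10 higher and 8 lower (1.001% and 0.801%), against 1.90% and 1.04%.

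The controls spread less between the arms than from T0. Their interquartile range in GSI against DMSO was 0.54, against 0.78 for gene-targeting guides, and their central 95% ran from −0.87 to 0.81. Of the gene-targeting guides, 7.75% lay below this range and 10.7% above it. Of the 413 ribosomal guides, 7.26% lay below and 26.4% above. Their median raw count was only 21 to 28 with DMSO and 30 to 40 with GSI, and their interquartile range was 1.14. Their shares are thus not set against controls of like abundance. In the range of 100 to 300 mean normalized counts, 3.68% of gene-targeting guides were below the central 95% of controls (−0.87 to 0.80) and 4.64% above. The interquartile ranges lay closer together there, at 0.58 for controls and 0.62 for gene-targeting guides.

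The level at T0, which does not enter GSI against DMSO, gave another view. Binning by it sets guides alike at T0, but not in the cultures compared. For guides with a mean normalized count of 100 to 200 at T0, the interquartile range of the fold change was 0.59 over 358 controls and 0.71 over 34522 gene-targeting guides. It was 0.45 over 326 controls and 0.59 over 14882 gene-targeting guides for 200 to 400, and 0.36 over 98 controls and 0.47 over 1457 gene-targeting guides above 400. The medians of the controls were −0.14, −0.03 and −0.01 in these bins, and those of gene-targeting guides −0.01, 0.00 and 0.00. Controls were thus less spread than gene-targeting guides in each of these bins, and the lower median of the controls was seen mainly below 200.

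The controls with the lowest p on the high side of GSI against DMSO were 0626, 0702, 0134 and 0065. Control 0626 had normalized counts of 204, 194 and 117 with DMSO and of 349, 498 and 369 with GSI, a log2 fold change of 1.24 ± 0.37 (adjusted p = 1, edgeR). Its T0 libraries stood at 361 and 95.5. Control 0702 had 201, 109 and 171 with DMSO and 281, 248 and 468 with GSI, at 1.05 ± 0.40, with 204 and 246 at T0. Control 0134 had 265, 256 and 201 with DMSO and 292, 386 and 666 with GSI, at 0.90 ± 0.37. In these 3 the arms did not overlap, and in control 0065, at 1.15 ± 0.48, the lowest GSI culture (132) lay below the highest DMSO culture (139).

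On the low side control 0658 led, with 183, 442 and 608 with DMSO and 186, 113 and 227 with GSI, at −1.23 ± 0.43 (adjusted p = 1, edgeR). Its arms overlapped through DMSO replicate 1. Control 0985 had 139, 157 and 239 with DMSO and 121, 14.8 and 37.0 with GSI, at −1.65 ± 0.63, and its T0 values were 54.6 and 109. Control 0956 had 577, 627 and 548 with DMSO and 358, 389 and 247 with GSI, at −0.82 ± 0.32. Control 0517 had 296, 155 and 178 with DMSO and 136, 86.7 and 28.2 with GSI, at −1.33 ± 0.54. The arms of the last 3 did not overlap and none of the 4 was called. A difference between the arms of over 1 on the log2 scale occurred for 9 controls upwards (0.901%, against 7.20% of all guides) and 13 downwards (1.30%, against 5.48%). For mean normalized counts of 100 to 300 the contrast was smaller, with 0.768% of controls and 2.10% of gene-targeting guides upwards and 1.08% and 2.08% downwards.

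The 5 most abundant controls did not separate T0 from the cultures. Control 0722 had the highest mean normalized count, with 743 and 863 at T0, 1266, 868 and 859 with DMSO and 1092, 1050 and 767 with GSI. Control 0599 followed with 612 and 1011 at T0, 1021, 962 and 936 with DMSO and 1038, 947 and 779 with GSI. Control 0741 ranged from 481 in GSI replicate 3 to 1182 in DMSO replicate 1, control 0109 from 647 in DMSO replicate 3 to 1028 in GSI replicate 1, and control 0102 from 632 in T0 replicate 1 to 1174 in DMSO replicate 1. The arms and T0 overlapped for all 5 of these controls. Their log2 fold changes from T0 ran from −0.27 for control 0109 to 0.59 for control 0741 with DMSO, with standard errors of 0.34 to 0.41.

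At the other end, controls 0849 and 0649 were at 0 in 2 libraries. Control 0849 had raw counts of 15 and 0 at T0, 1, 47 and 0 with DMSO, and 1, 5 and 11 with GSI. Control 0649 had 34 and 0 at T0, 0, 35 and 84 with DMSO, and 37, 174 and 36 with GSI. Controls 0728, 0470 and 0491 were at 0 in 1 library each, namely GSI replicate 2, T0 replicate 1 and T0 replicate 2. In control 0728 the 2 T0 counts were 33 and 130, with 6, 49 and 25 in DMSO and 8, 0 and 25 in GSI. The 1 control that did not pass the filter was 0538, which was rare in every library (1 to 17 raw counts) and at 0 in none.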

How the data were processed

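Guide abundance was measured by sequencing PCR products of genomic DNA from 8 libraries. Per the labels and the study's methods, the authors used bcl2fastq 2.19, FastQC 0.11.5 and the MAGeCK 0.5.9.2 count command on the combined GeCKOv2 library. The deposited count table holds the raw read count of each guide. The deposited normalized table holds a signal, the raw count times a constant per library, and served as an alternative only. Non-targeting controls were removed from the authors' gene summary. In R 4.3.3, guides with a mean count of at least 10 were tested with edgeR 4.0.16 (median-ratio size factors, only the libraries compared, Benjamini-Hochberg over 116852 guides; limma 3.58.1 and DESeq2 1.42.0 were also loaded, the latter for an alternative). The same steps were run on simulated counts, with the same spread set for all guides, as a check of the code only. Levels were medians of log2(normalized count + 1) over all guides. The robust SD is the interquartile range divided by 1.349. Descriptive values were computed in Python 3.11.15.

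The controls named were, per comparison and side, the 4 with the lowest p, the 5 most abundant and the 5 at 0 in most libraries. Members, reference lists and alternatives were chosen with earlier results of these data known. The range of 100 to 300 was added after seeing the data. Library depth was 12052218 to 18212884 counts. Intervals cover counting error only, and p-values measure the spread between aliquots or cultures of 1 pool.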

Additional observations from a re-analysis of the deposited data

How the results depend on the processing

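The difference in the gap between controls and gene-targeting guides was 0.29 for DMSO against T0 and 0.22 for GSI against T0. It was 0.0915 and −0.0555 with the mean over guides, and 0.16 and 0.11 against olfactory receptors and keratin-associated proteins. Leaving out 1 library gave 0.20 to 0.38 and 0.14 to 0.31. For GSI against DMSO (−0.06) it was −0.15 with the mean, −0.11 against part A, −0.0121 with the upper quartile and −0.00869 for mean counts of 100 to 300. The value against part A rested on GSI replicate 1 (1.01, against 1.31 and 1.32 in GSI replicates 2 and 3). Controls under 10 counts made up 2.15% at T0, 0.50% with DMSO and 0.233% with GSI, and 0.154% were at 0 at T0 for mean counts of 100 to 300.

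Calls of single controls depended on the fit and the T0 libraries, and the share over all guides moved as well. It is given after each count of controls. In DMSO against T0 the joint fit of all groups called 1 control (0.1001%, all guides 0.0291%), DESeq2 called 22 (all guides 5.66%), and leaving out 1 library gave 0 to 39 (all guides 0% to 7.13%). Higher at an unadjusted p under 0.05 were 46 with library totals (4.60%, all guides 4.62%), 13 scaled to the controls (1.30%, 2.94%), 69 in the joint fit (6.91%, 7.09%) and 113 with DESeq2 (11.3%, 9.42%). With 1 library left out 13 to 136 were higher (all guides 2.23% to 17.4%). Lower were 5 with TMM (all guides 3.28%), 3 with totals (3.13%), 25 scaled to the controls (6.03%), 15 in the joint fit (5.10%), 23 with DESeq2 (7.58%) and 1 to 25 with 1 library left out (2.32% to 6.26%).

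In GSI against T0 DESeq2 called 39 (all guides 6.71%), and leaving out 1 library gave 0 to 98 (all guides 0% to 18.1%). Higher were 14 with totals (1.40%, all guides 3.37%), 18 scaled to the controls (1.80%, 3.67%), 107 with DESeq2 (10.7%, 9.68%) and 15 to 164 with 1 library left out (all guides 2.43% to 22.4%). Lower were 16 scaled to the controls (all guides 6.23%), 22 with DESeq2 (8.37%) and 3 to 38 with 1 library left out (2.11% to 10.1%). In GSI against DMSO no setting called a control (0%). The share of all guides called was 0% as well, except with library totals (0.00856%). Higher were 2 with totals (all guides 0.773%), 3 in the joint fit (0.804%) and 4 to 17 with 1 library left out (0.776% to 3.26%). Lower were 26 with totals (2.60%, all guides 2.65%), 8 scaled to the controls (0.801%, 1.04%), 7 in the joint fit (0.701%, 0.424%), 22 with DESeq2 (2.20%, 2.09%) and 10 to 26 with 1 library left out (all guides 0.811% to 2.28%). The causes were not tested.

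The interquartile range of control fold changes was 0.87 for mean counts of 100 to 300 in DMSO against T0. With 1 library left out it was 0.86 to 1.25 in DMSO against T0, 0.76 to 1.23 in GSI against T0 and 0.53 to 0.67 in GSI against DMSO. Where 1 T0 library was left, it was assumed to vary like the cultures.

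Neither the labels nor the methods say what a replicate number marks. Deviations of DMSO and GSI cultures of 1 number correlated at 0.281, 0.0647 and 0.122 over all guides. The value of replicate 2 lay under the 0.1 asked of every pair, so the numbers were not taken as a pairing, although each culture correlated best with its own number, which is a hint from the data. For T0 and cultures of the same number, the values were 0.00600 and −0.00128 with DMSO and 0.0251 and −0.0123 with GSI. The replicate block fits a term per number. T0 has no replicate 3, so replicate 3 of either arm adds nothing to a blocked comparison with T0. With the replicate block, 27 controls were higher (2.70%, all guides 2.06%) and 1 lower (0.1001%, 1.39%) in DMSO against T0. In GSI against T0 18 were higher (1.80%, all guides 1.67%) and 2 lower (0.2002%, 1.02%), and in GSI against DMSO 11 were higher (1.10%, all guides 2.35%) and 25 lower (2.503%, 1.90%).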
